A study of Mus musculus with 7 samples.

Results

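Mouse embryonic fibroblasts (MEFs) exposed to sodium arsenite for 3 h were compared with untreated MEFs, gene by gene, in RNA-seq levels given as TPM, the length-corrected share of each transcript in its library. The cells were wild type primary fibroblasts taken from whole mid-gestation embryos after removal of the head and red tissue, so that a culture can hold fibroblasts of many body sites. The study describes sorting its MEFs to remove macrophages. The fibroblasts were plated at equal numbers and cultured overnight before each treatment. The control library came from untreated cells and the oxidative stress library from cells with 10 μM NaAsO2 added for 3 h. Osmotic stress (100 mM NaCl for 3 h) is the other 3 h condition and is set beside arsenite throughout. ER stress (1 μM thapsigargin), glucose depletion, glutamine depletion and hypoxia (0.1% oxygen), each for 10 h, make up the rest of the 7 libraries. Each condition had 1 library, which allows no statement on the variation between cultures and no p-value. The sources used here do not say how long the control cells were kept or whether their medium was renewed.

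The comparison used the 11558 genes, of 49382 rows in the table, whose mean over the 7 libraries was 2 TPM or more and whose symbols do not carry the prefixes Gm, Mir, Snor or mt-T or the marks -ps and -rs. Some noncoding RNAs and pseudogenes under other symbols remained among them. Of the 11558, 11475 are not growth factors and are described here. A change is the difference in log2(TPM + 1) between arsenite and control after subtraction of its median over all genes compared, which was -0.17 before centring (-0.13 in NaCl), and a change above 1 or below -1 is called past 2-fold. The added 1 TPM understates the change of genes with low levels. Since TPM is a share of each library, it keeps no read count, the sequencing depth is unknown, and fewer cells of a type cannot be told apart from less RNA per cell.

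Arsenite reacts with pairs of thiol groups in proteins and with glutathione. Cells are known to answer such damage through several transcription factors. NRF2 is released from its thiol-rich partner KEAP1 and drives genes of glutathione and thioredoxin metabolism together with heme oxygenase. HSF1 drives chaperones when proteins misfold, MTF1 drives metallothioneins when zinc or other metals are set free, and kinases of the eIF2alpha pathway raise ATF4 and ATF3.

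The 3 marker genes of arsenite exposure were all far higher in the arsenite library. Hmox1, the heme oxygenase that cleaves heme to biliverdin, iron and carbon monoxide (GRCm38 chr8:75093621-75100589), stood at 266 TPM in control cells, 6055 TPM in arsenite, 256 TPM in NaCl, 1802 TPM in thapsigargin, 217 TPM without glucose, 265 TPM without glutamine and 497 TPM in hypoxia. It moved from rank 510 to rank 8 by TPM among the genes compared, and took 0.606% of all TPM in arsenite against 0.0266% in the control (change 4.67). Hspa1a, which encodes an inducible HSP70 chaperone, went from 7.52 to 273 TPM (5.17), and Atf3, a stress-induced transcription factor, from 3.02 to 88.3 TPM (4.64). Of the 3, Atf3 was the one with a higher level elsewhere, at 112 TPM in thapsigargin.

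Past 2-fold, 313 genes (2.71% of those compared) were higher and 212 (1.83%) were lower in arsenite than in the control. Without centring, the counts were 221 higher and 419 lower, so which direction has more genes depends on that step. Growth factors were 14 of the genes higher and 2 of those lower, which leaves 299 and 210. Of the 299, 262 were protein-coding, with a median level of 12.5 TPM in the control and 31.6 TPM in arsenite. Of the 210, 171 were protein-coding, with a median of 12 TPM in the control and 3.76 TPM in arsenite. The 5th and 95th percentiles of the change over all genes were -0.74 and 0.77. The genes nearest to the threshold among those past 2-fold were Sik1, at 6.38 and 12.1 TPM in control and arsenite, and Bivm, at 17.1 and 7.06 TPM. Nearest to it among those within 2-fold were mt-Nd3, at 2012 and 3577 TPM, and Pitx1, at 16.8 and 6.94 TPM. Counts of list members past 2-fold in arsenite, given below, stand beside 2.71% of all genes for higher and 1.83% for lower.

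**Figure D1:**
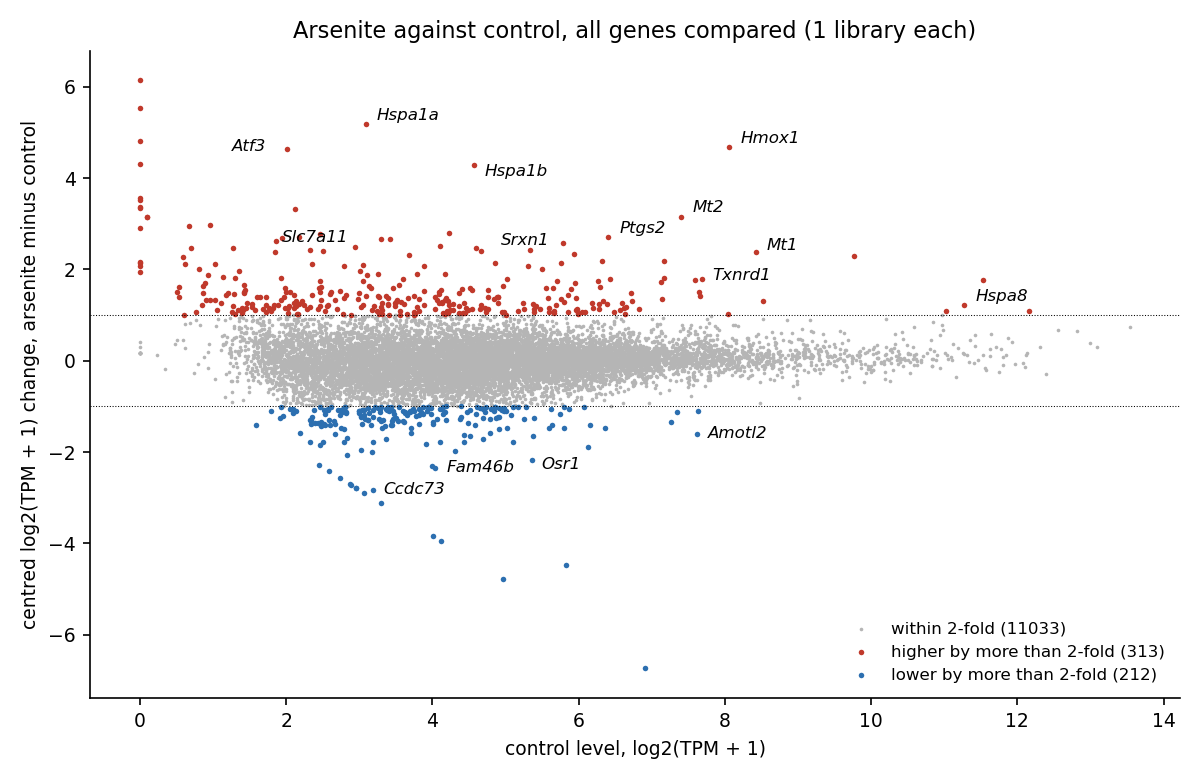
Control level, as log2(TPM + 1), against the centred log2(TPM + 1) change from control to arsenite, 1 point per gene for the 11558 genes compared and 1 library per condition. Hmox1, Hspa1a, Hspa1b and Atf3 have changes above 4, Hspa8 is higher from a control level of 2473 TPM, and the lowest points, at changes from -6.74 upwards, are mostly not protein-coding.

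Genes higher in arsenite were in part also higher in NaCl. Of the 299, 65 were past 2-fold higher in NaCl as well, where 2.21% of all genes were, and 11 were past 2-fold lower there, where 5.57% of all genes were. Of the 210 genes lower in arsenite, 49 were also lower and 2 were higher in NaCl. Both comparisons share the control library, so a low or high control value enters each. Against the NaCl library itself, 142 of the 299 were past 2-fold higher, where 6.45% of all genes were. Of the 210, 64 were past 2-fold lower, where 2.27% of all genes were. Against the median of the 5 other stress libraries the counts were 151 (2.07% of all genes) and 70 (0.943%). The 299 and 210 were chosen by their values in the arsenite library, which enters these comparisons too. Some excess in the same direction is therefore built in, and the counts are no separate check. More than 2-fold above each of the other 6 libraries, with each pair centred in the same way, were 19 genes (0.164%), 15 of them protein-coding, and 7 (0.0606%) were below each of them. The 2 TPM minimum was set on a mean that includes the arsenite library. Some of the 19, such as Scarna3a at 0 TPM in the other 6, therefore passed the minimum only through their arsenite level.

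The enzymes of heme, glutathione and thiol metabolism formed the first group. In the list of heme and iron genes, 2 of 16 were past 2-fold higher and 0 lower (median change 0.25). Beside Hmox1 this was Slc40a1, the iron exporter ferroportin, at 3.67 and 9.21 TPM (1.30). The ferritin chains, which store iron, stayed within 2-fold, with Fth1 at 1366 and 1870 TPM (0.62) and Ftl1 at 5082 and 5529 TPM (0.29).

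All 18 genes of the glutathione and cystine list had a change above 0, with a median of 0.48, and 4 were past 2-fold higher. Slc7a11, the cystine-importing subunit of system xc-, went from 2.60 to 15.7 TPM (2.39), and was at 18.5 TPM in thapsigargin (2.43). Its partner chain Slc3a2 went from 201 to 298 TPM (0.73). Gclm and Gclc, the modifier and catalytic subunits of glutamate-cysteine ligase, which makes the first step of glutathione synthesis, went from 75.7 to 228 TPM (1.75) and from 21.8 to 60.0 TPM (1.59). In NaCl Gclm was at 75.6 TPM and Gclc at 18.7 TPM, so both were close to their control levels there. In thapsigargin Gclm was at 135 TPM (0.81) and Gclc at 43.9 TPM (0.97). Gss, which makes the second step, was at 56.8 and 53.2 TPM (0.08). Gsta4, a glutathione transferase for lipid aldehydes, was the remaining member past 2-fold (28.7 and 68.0 TPM, 1.39), and arsenite gave the highest centred level of all 7 libraries for 8 of the 18, against 11.3% of all genes compared.

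Of 15 thioredoxin and peroxiredoxin genes, 2 were past 2-fold higher (median 0.18). Srxn1, the sulfiredoxin that repairs over-oxidised peroxiredoxins, stood at 54.0 TPM in the control, 291 TPM in arsenite, 38.6 TPM in NaCl, 76.1 TPM in thapsigargin, 59.1 TPM without glucose, 119 TPM without glutamine and 48.9 TPM in hypoxia (change 2.58 in arsenite). Its arsenite level was more than 2-fold above each of the other 6. Txnrd1, the cytosolic thioredoxin reductase, went from 205 to 634 TPM (1.80), close to its 617 TPM in thapsigargin. The peroxiredoxins themselves were near their control levels, from Prdx6 (0.44) to Prdx2 (-0.11).

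Among 11 regulators of the NRF2 pathway, 4 were past 2-fold higher and the median was 0.59, against 3 higher and 0.35 in NaCl. Osgin1, an oxidant-induced inhibitor of growth, went from 4.12 to 18.6 TPM (2.11), and Bach2, a repressor that competes at the same DNA elements, from 0.813 to 4.05 TPM (1.65). Sqstm1, which encodes the autophagy receptor p62 that binds KEAP1, went from 365 to 801 TPM (1.30), and was at 1507 TPM in thapsigargin. Maff, a small MAF partner, went from 28.7 to 62.8 TPM (1.27). The transcript of NRF2 itself, Nfe2l2, was at 95.6 and 128 TPM (0.59) and that of Keap1 at 34.2 and 17.0 TPM (-0.80). Of 14 NADPH and quinone enzymes, 0 were past 2-fold in either direction, with Nqo1, often used as an NRF2 readout, at 106 and 142 TPM (0.59). The same held for 11 superoxide and peroxide enzymes (0 past 2-fold, median -0.05), with Sod1, the cytosolic superoxide dismutase, at 436 and 373 TPM (-0.05).

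The upstream sequence of Gclm is shown for the antioxidant response element, the site bound by NRF2 with a small MAF protein, searched as TGACNNNGC on both strands, and that of Srxn1 for the AP-1 element, searched as TGANTCA. Each stretch is the 150 bases before the annotated start (RefSeq, GRCm38.p6), printed 5′ to 3′ on the strand of the gene, with matches in capitals (in Gclm on the opposite strand).
Gclm (chr3:122245407-122245556, + strand): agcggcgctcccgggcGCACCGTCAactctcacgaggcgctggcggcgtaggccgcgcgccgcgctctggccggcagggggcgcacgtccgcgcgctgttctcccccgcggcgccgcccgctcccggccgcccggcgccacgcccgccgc
Srxn1 (chr2:152105374-152105523, + strand): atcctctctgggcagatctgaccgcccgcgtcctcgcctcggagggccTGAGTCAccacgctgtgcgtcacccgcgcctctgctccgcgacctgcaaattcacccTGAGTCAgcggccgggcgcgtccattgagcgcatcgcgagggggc
Windows of 250 bases before to 50 bases after each start were available for 8908 of the genes compared, and none for Hmox1, Gclc, Gsta4 or Slc40a1. The antioxidant response element was found in 4 of the 12 windows of the oxidant defence genes past 2-fold higher. It was also in 8 of the 28 windows of the early and MAP kinase genes past 2-fold higher. For the heat shock genes past 2-fold higher it was 3 of 12. Its share was 15.8% of the windows of all genes higher, 14.2% of those of all genes compared and 12.4% of all windows in the table. The AP-1 element was in 11.2% of the windows of genes higher, 7.47% of those of genes lower, 4.86% of those of all genes compared and 7.81% of all windows in the table. Several genes have more than 1 window, some of them overlapping, and the letters alone do not show binding.

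Metallothioneins, small cysteine-rich proteins that bind zinc and other metals, were among the most strongly changed abundant transcripts. Mt2 stood at 168 TPM in the control, 1333 TPM in arsenite, 217 TPM in NaCl, 449 TPM in thapsigargin, 197 TPM without glucose, 253 TPM without glutamine and 659 TPM in hypoxia (change 3.15 in arsenite). Mt1 stood at 342, 1585, 382, 362, 243, 335 and 1085 TPM in the same order (2.38). Together they summed to 510 TPM in the control and 2918 TPM in arsenite, and the arsenite level was the highest of the 7 for both, with hypoxia second.

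The other zinc genes moved both ways. Slc30a1, which exports zinc across the plasma membrane, went from 3.32 to 8.28 TPM (1.27), and Slc39a10, a zinc importer, from 22.9 to 7.07 TPM (-1.40). In NaCl Slc30a1 was at 0.577 TPM (-1.32) and Slc39a10 at 24.7 TPM (0.23). Of the 15 genes of the list, 3 were past 2-fold higher and 1 lower, and the median was -0.11. Mtf1, the factor that binds metal response elements, was at 11.3 and 8.34 TPM (-0.23).

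The stretches before the annotated starts of the metallothionein genes, which lie side by side on chromosome 8, are shown for the metal response element. It was searched as TGCNCNC on both strands, and the stretches are printed as above.
Mt2 (chr8:94172468-94172617, + strand): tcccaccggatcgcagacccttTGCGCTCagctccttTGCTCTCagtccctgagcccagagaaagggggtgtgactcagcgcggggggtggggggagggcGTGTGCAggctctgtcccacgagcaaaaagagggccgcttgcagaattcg
Mt1 (chr8:94178939-94179088, + strand): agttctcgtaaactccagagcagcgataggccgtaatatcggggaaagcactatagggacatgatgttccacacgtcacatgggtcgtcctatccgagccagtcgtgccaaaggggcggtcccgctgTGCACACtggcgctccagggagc
These letters are common, being present in 60.6% of the windows of all genes compared and in 51.0% of all windows. The Mt2 window held 6 matches and the Mt1 window 3, of which 3 and 1 lie in the stretches shown. The remaining Mt1 matches begin at bases 3 and 21 counted from the annotated start, so the stretch shown need not be the whole Mt1 promoter. In Mt2 a match to both the AP-1 and the antioxidant element begins 79 bases before the start, and the 2 matches overlap.

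The cytosolic heat shock genes formed the second large group. Of 37, 10 were past 2-fold higher and 0 lower, with a median of 0.44, against 3 higher and a median of 0.17 in NaCl. Arsenite gave the highest centred level of the 7 libraries for 18 of the 37 and the lowest for 0, against 11.3% and 11.5% of all genes compared. The inducible HSP70 genes led: Hspa1a (chr17:34969190-34972156) stood at 7.52, 273 and 51.4 TPM in control, arsenite and NaCl, and at 2.11 to 5.10 TPM in the 10 h conditions. Hspa1b (chr17:34956436-34959238) stood at 22.8, 413 and 263 TPM in control, arsenite and NaCl, and at 10.8 to 22.6 TPM in the 10 h conditions (4.29 in arsenite).

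The 2 genes are near-identical copies, so reads may be split between them arbitrarily and their sum is the firmer value. It was 30.3 TPM in the control, 685 TPM in arsenite (4.62) and 314 TPM in NaCl. The HSP70 sum was therefore high in both 3 h conditions and at 13.0 to 26.5 TPM in the others.

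Other chaperones were higher as well. Dnajb1, the HSP40 partner of HSP70, went from 31.3 to 98 TPM (1.78) and was at 26.7 TPM in NaCl. Hspb1, a small heat shock protein, went from 191 to 580 TPM (1.76) and was at 227 TPM in NaCl and 74.1 TPM in thapsigargin. Hsph1, the HSP110 nucleotide exchange factor, went from 85.5 to 267 TPM (1.80), with 135 TPM in NaCl. For all 3 the arsenite level was more than 2-fold above each of the other 6 libraries. Hspa8, the constitutive HSC70 and the most abundant of the list, went from 2473 to 5102 TPM (1.21), so that in TPM it still exceeded the HSP70 pair. Dnajb4 (1.31), Bag3 (1.27) and Hspb8 (1.06), the last 2 being partners in chaperone-assisted autophagy, were also past 2-fold. Hspa4l was higher in NaCl than in arsenite, with 31.5 TPM in arsenite (1.04) and 70.3 TPM in NaCl (2.14). The HSP90 genes stayed within 2-fold, with Hsp90aa1 at 791 and 1071 TPM (0.61), as did Hsf1 (0.12).

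The upstream stretches of 3 of these genes are shown for the paired heat shock element, the site bound by HSF1, searched as GAANNTTC (head to head) and TTCNNGAA (tail to tail). Matches are in capitals, and Hspa1a and Hspa1b lie on the minus strand.
Hspa1a (chr17:34972157-34972306, - strand): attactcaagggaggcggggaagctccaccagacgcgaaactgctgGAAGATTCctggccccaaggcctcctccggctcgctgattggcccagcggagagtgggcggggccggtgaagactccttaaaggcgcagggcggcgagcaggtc
Hspa1b (chr17:34959239-34959388, - strand): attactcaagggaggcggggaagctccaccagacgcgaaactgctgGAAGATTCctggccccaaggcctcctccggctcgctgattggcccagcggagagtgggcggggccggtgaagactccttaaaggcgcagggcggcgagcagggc
Hspb1 (chr5:135887769-135887918, + strand): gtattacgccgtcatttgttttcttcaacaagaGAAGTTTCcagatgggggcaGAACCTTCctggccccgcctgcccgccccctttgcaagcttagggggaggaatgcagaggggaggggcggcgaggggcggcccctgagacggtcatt
The stretches of Hspa1a and Hspa1b differ at 1 of 150 bases, and each holds a head to head pair beginning 104 bases before the start. The head to head pair was found in 7 of the 12 windows of the heat shock genes past 2-fold higher, belonging to Bag3, Hspa1a, Hspa1b, Hspb1, Hspb8 and Hsph1. It was in 5.69% of the windows of all genes compared, in 6.83% of those of all genes higher and in 7.86% of all windows in the table. The tail to tail pair was in 3 of the 12, belonging to Dnajb4 and Hsph1, and was found in 6.77% of the windows of all genes compared and in 8.52% of all windows in the table. No window was given for Hspa8.

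Other arms of protein quality control changed less or not at all. Of 26 ubiquitin and autophagy genes, 3 were past 2-fold higher, with a median of 0.34 (0.20 in NaCl). Ubb, which encodes polyubiquitin, went from 764 to 1070 TPM (0.65). Zfand2a, an arsenite-inducible protein that associates with the proteasome, went from 24.3 to 118 TPM (2.40), and Sqstm1 was also past 2-fold higher.

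The 33 proteasome subunits were all within 2-fold with a median of 0.17. Arsenite gave the highest level of the 7 for 18 of them, against 11.3% of all genes compared. Of 25 genes for ER chaperones and ER-associated degradation, 1 was past 2-fold lower, Sdf2l1, at 31.1 and 12.4 TPM (-1.09). The median of that list was -0.28 and arsenite gave the lowest of the 7 levels for 12 of the 25, against 11.5% of all genes compared. In thapsigargin the median was 2.5. None of 8 subunits of the chaperonin CCT, 15 mitochondrial chaperones and proteases, 20 aminoacyl-tRNA synthetases or 22 lysosomal genes passed 2-fold in arsenite.

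**Figure D2:**
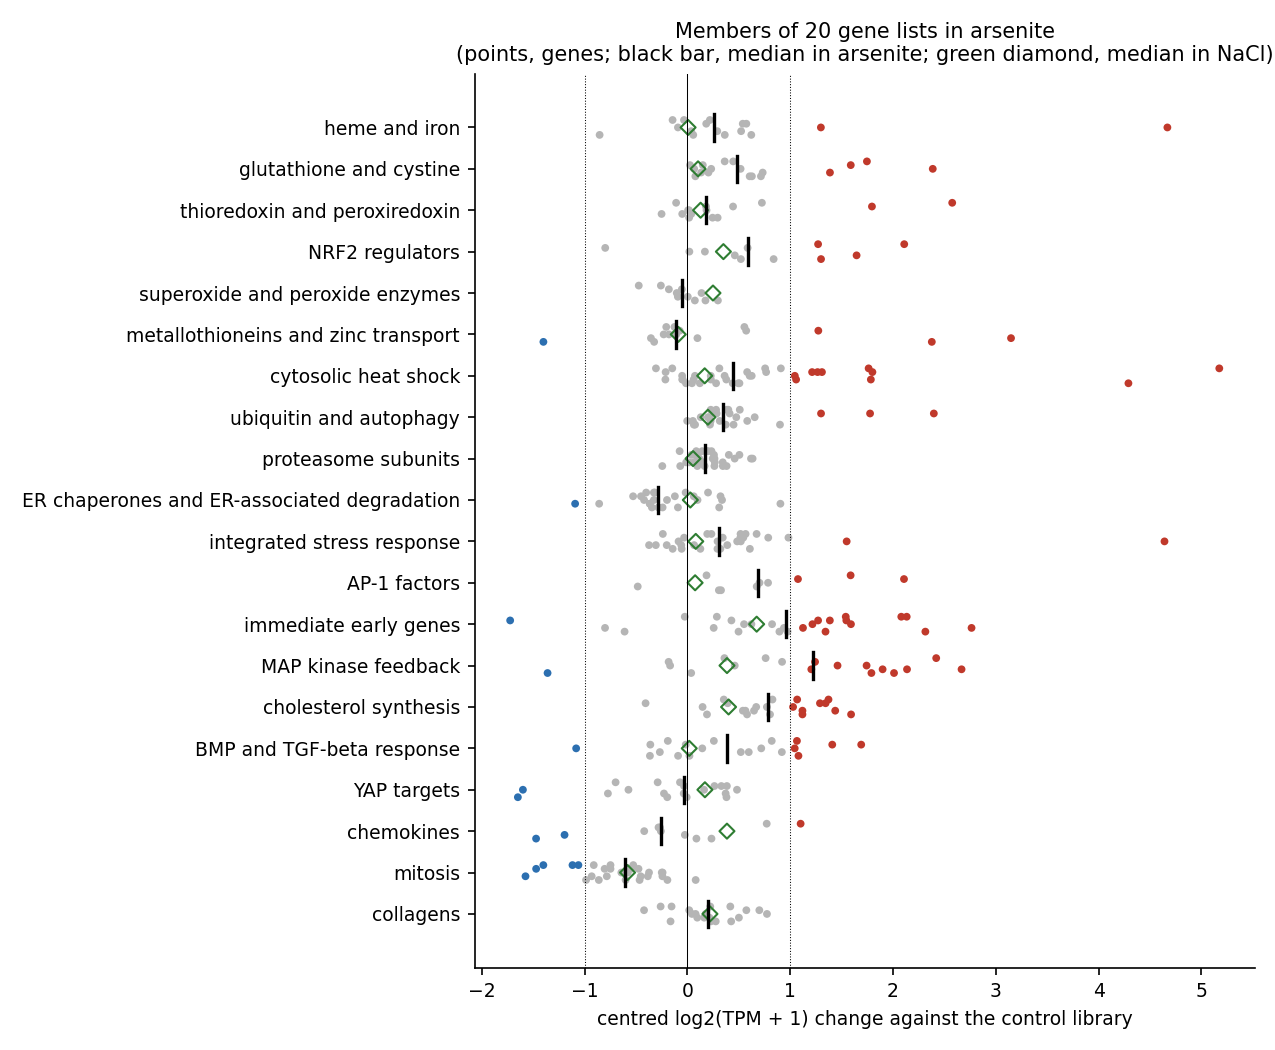
Centred log2(TPM + 1) changes against the control library for the members of 20 gene lists. Each point is a gene in arsenite (red, past 2-fold higher; blue, past 2-fold lower), the black bar is the list's median in arsenite and the green diamond its median in NaCl. The heat shock list reaches 5.17 and has 0 members below -1, while the mitosis list has 1 of 30 members above 0.

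The integrated stress response was represented by few genes. Of 30 genes, 2 were past 2-fold higher and 0 lower, with a median of 0.31 (1.08 in thapsigargin). In NaCl 5 were higher and 4 lower, with a median of 0.08. Atf3 stood at 3.02 TPM in the control, 88.3 TPM in arsenite, 13.2 TPM in NaCl, 112 TPM in thapsigargin, 3.14 TPM without glucose, 21.3 TPM without glutamine and 5.95 TPM in hypoxia. Chac1, an enzyme that degrades glutathione, went from 26.2 to 69.7 TPM in arsenite (1.55), with 4.28 TPM in NaCl and 224 TPM in thapsigargin. Just below the threshold were Ppp1r15a, the GADD34 subunit that reverses eIF2alpha phosphorylation (38.8 and 68.9 TPM, 0.98), and Atf4 (276 and 424 TPM, 0.79). Ddit3, which encodes CHOP, was at 136 and 177 TPM (0.54) and at 1870 TPM in thapsigargin. Asns, a gene of amino acid synthesis driven by ATF4, was at 141 and 109 TPM (-0.20).

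Early-response genes and the phosphatases that restrain MAP kinases formed the third group. The MAP kinase feedback and immediate early lists had the 2 highest medians of the 52 lists examined, cell type markers aside. Of 18 MAP kinase feedback genes, 10 were past 2-fold higher and 1 lower (median 1.22, against 0.38 in NaCl and 0.67 without glutamine). Dusp10 and Dusp8, phosphatases acting mainly on p38 and JNK, went from 8.80 to 54.4 TPM (2.67) and from 4.0 to 22.8 TPM (2.42). Dusp8 was more than 2-fold above each of the other 6 libraries. Dusp1, which acts on the same kinases, stood at 44.3 TPM in the control, 161 TPM in arsenite and 175 TPM in NaCl, and at 31.2 to 48.4 TPM in the 10 h conditions. Errfi1, an inhibitor of the EGF receptor, went from 28.1 to 113 TPM (2.14). The ERK phosphatases Dusp5 (1.90), Dusp4 (1.79) and Dusp6 (1.46) and the Ras pathway inhibitors Spry4 (1.74), Spred2 (1.24) and Spry2 (1.21) were past 2-fold as well, and Spry1 was the member lower, at 21.5 and 6.78 TPM (-1.36).

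Of 26 immediate early genes, 12 were past 2-fold higher and 1 lower, with a median of 0.96. In NaCl 8 were higher and 4 lower, with a median of 0.67. Without glutamine the median was 0.90, close to that in arsenite. Egr2, a zinc finger transcription factor, stood at 4.50 TPM in the control, 32.2 TPM in arsenite, 8.06 TPM in NaCl, 5.01 TPM in thapsigargin, 12.4 TPM without glucose, 56.9 TPM without glutamine and 5.48 TPM in hypoxia. Arc, an activity-regulated cytoskeletal gene, went from 11.8 to 55.6 TPM (2.31) and was likewise higher without glutamine, at 86.6 TPM. Ier3 (2.13) and Csrnp1 (2.08) were higher still in NaCl, at 2.82 and 2.62. Klf2, a factor known from endothelium, was lower in both 3 h conditions, at 25 TPM in the control, 5.99 TPM in arsenite and 4.14 TPM in NaCl. Zfp36, which encodes the mRNA decay factor tristetraprolin, went from 16.3 to 44.0 TPM (1.55).

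Of 10 AP-1 factors, 3 were past 2-fold higher, namely Fosb (1.03 and 6.77 TPM, 2.11), Fosl1 (49.4 and 134 TPM, 1.59) and Junb (67.1 and 127 TPM, 1.08). Fos (0.70) and Jun (0.78) themselves were within 2-fold at 3 h. Ptgs2, the inducible prostaglandin synthase COX-2, stood at 83.8 TPM in the control, 489 TPM in arsenite, 420 TPM in NaCl, 159 TPM in thapsigargin, 118 TPM without glucose, 667 TPM without glutamine and 105 TPM in hypoxia. It was the 1 gene past 2-fold among 20 of the NF-kB and prostaglandin list, whose inhibitor gene Nfkbia was at 36.7 and 51.5 TPM (0.65). The early genes past 2-fold in arsenite thus included some past 2-fold in NaCl too (Dusp1, Ptgs2, Fosb, Fosl1, Junb, Ier3, Csrnp1, Arc, Errfi1). They also included some past 2-fold without glutamine (Egr2, Arc, Ptgs2, Fosb, Fosl1, Junb, Errfi1, Dusp10), so several were in both sets. Dusp8 was past 2-fold in arsenite alone, with a change just under the limit in hypoxia (0.99).

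**Figure D3:**
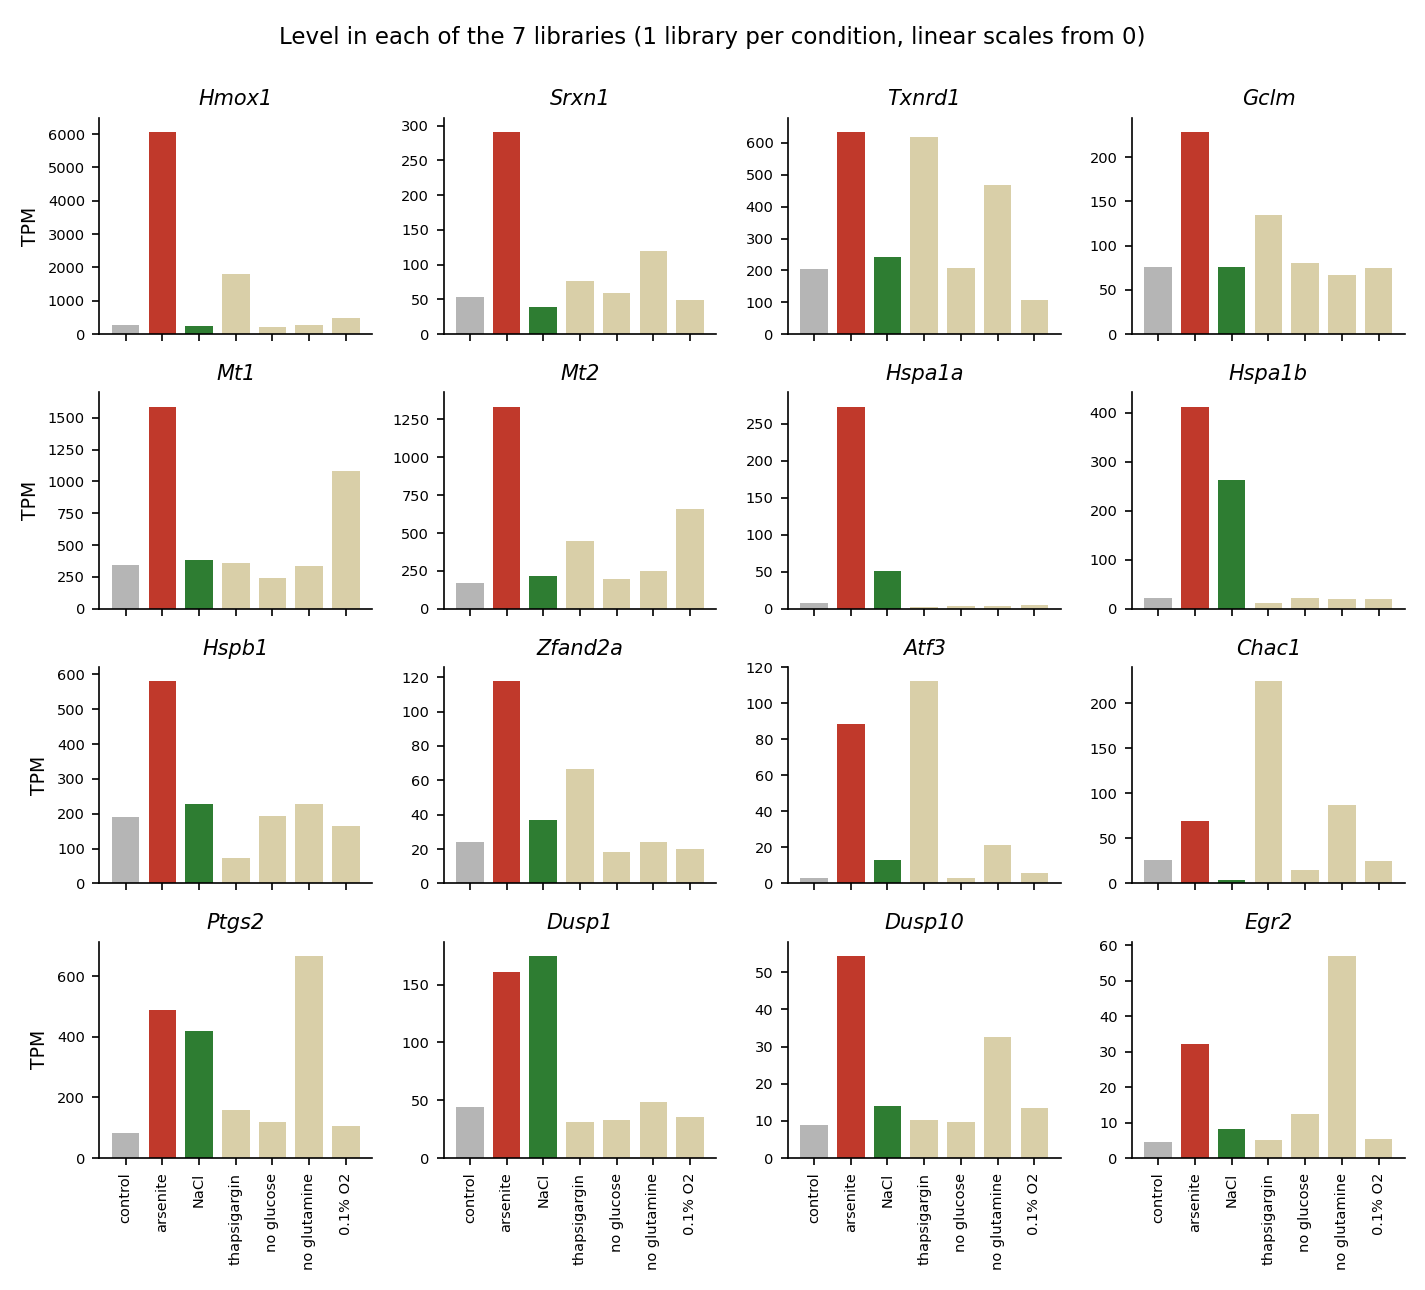
TPM of 16 genes in each of the 7 libraries, 1 bar per library, on linear axes that start at 0 and differ between genes (grey, control; red, arsenite; green, NaCl; tan, the 10 h conditions). Hmox1, Srxn1, Hspa1a, Hspb1 and Mt2 have their highest bar in arsenite by more than 2-fold, Dusp1 is high in both 3 h conditions, and Atf3, Chac1, Ptgs2 and Egr2 have a higher bar elsewhere.

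Among cell fate genes, 3 of 26 p53 targets were past 2-fold higher with a median of -0.08. These were Plk3, a polo-like kinase (10.7 and 31.7 TPM, 1.65), Gadd45a, a growth arrest gene (30.3 and 85.5 TPM, 1.63), and Pmaip1, the BH3 protein NOXA (43.3 and 84.7 TPM, 1.12). Gadd45a was higher still in thapsigargin, at 286 TPM (3.18), while Plk3 and Pmaip1 had their highest level in arsenite. The central p53 targets Cdkn1a (364 and 333 TPM, 0.04) and Mdm2 (105 and 126 TPM, 0.43) were not past 2-fold. Myc was the 1 of 24 G1 cyclin and MYC genes past 2-fold higher, where 2.71% of all genes were, at 56.8 and 106 TPM (1.06). It was higher still in thapsigargin, at 265 TPM (2.19), and without glutamine, at 144 TPM (1.42).

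Genes of cholesterol synthesis and uptake were higher as a list. Of 22, 9 were past 2-fold higher, 21 had a change above 0, and the median was 0.79 (0.40 in NaCl, -0.29 in thapsigargin, -0.85 without glucose, -0.72 without glutamine and -0.59 in hypoxia). Insig1, which retains the SREBP activators in the ER and is itself their target, went from 45.8 to 125 TPM (1.59), with 101 TPM in NaCl and 12.6 TPM without glutamine. Among the enzymes, Idi1 went from 61.2 to 142 TPM (1.37) and Msmo1 from 141 to 319 TPM (1.34). Hsd17b7, a further enzyme of the pathway, went from 54.5 to 120 TPM (1.29) and was more than 2-fold above each of the other 6 libraries. For 16 of the 22 genes arsenite gave the highest of the 7 levels, against 11.3% of all genes compared. The median of the list was above 0 in both 3 h conditions and below 0 in the 4 of 10 h.

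Other metabolic lists held few genes past 2-fold. Of 24 glycolysis and HIF target genes, Slc2a1, the glucose transporter GLUT1, was the 1 member past 2-fold higher, where 2.71% of all genes were. It went from 58.4 to 157 TPM (1.58), and was at 428 TPM in hypoxia (2.91). The median of the list was 0.11 (2.14 in hypoxia). Of 16 clock genes, 3 were past 2-fold higher with a median of 0.62. Per2, a repressor of the clock, went from 1.41 to 10.8 TPM (2.46) and was more than 2-fold above each of the other 6 libraries, whose highest value was 2.96 TPM. Per2 passed the minimum mean level only through its arsenite value, so its place among the genes compared is no separate support. Its paralog Per1 was at 10.6 and 9.51 TPM (0.02). The repressors Bhlhe40 (49.7 and 95.3 TPM, 1.09) and Bhlhe41 (7.99 and 16.2 TPM, 1.10) were also higher. They lay below the control in NaCl, at 28.1 and 3.01 TPM, and were higher still in hypoxia, at 105 and 21.1 TPM.

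Developmental signalling genes moved in both directions. In the BMP and TGF-beta response list, 5 of 20 were past 2-fold higher and 1 lower (median 0.39, 0.02 in NaCl). Tgif1, a repressor of SMAD targets, went from 61.1 to 177 TPM (1.69), with 157 TPM in NaCl. Msx2 and Msx1, related homeobox genes downstream of BMP, moved opposite ways, from 9.34 to 23.4 TPM (1.41) and from 29.9 to 12 TPM (-1.08).

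Of 15 genes of the Notch, Wnt and Hedgehog response, Lef1 (0.746 and 5.29 TPM, 2.02) and Tcf7 (2.93 and 8.22 TPM, 1.40), DNA-binding partners of beta-catenin, were past 2-fold higher. The Wnt target Axin2 was at 3.02 and 2.87 TPM (0.11). Lef1 was at 7.38 TPM without glutamine and between 0.424 and 1.68 TPM in the rest.

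Lists with members lower in arsenite are taken next. YAP regulators and targets had 2 of 19 members past 2-fold lower, where 1.83% of all genes were, and 0 higher. The median of the list was near 0, at -0.04. Amotl2, an angiomotin that binds YAP and is also induced by it, stood at 195 TPM in the control, 56.6 TPM in arsenite, 160 TPM in NaCl, 180 TPM in thapsigargin, 220 TPM without glucose, 283 TPM without glutamine and 177 TPM in hypoxia (-1.60 in arsenite). Ajuba, a LIM protein that restrains LATS kinases, stood at 40.6 TPM in control cells, 10.8 TPM in arsenite and 38.6 to 58.3 TPM in the other 5 conditions (-1.65). Both were more than 2-fold below each of the other 6 libraries. The kinase gene Lats2 was at 56.4 and 30.5 TPM (-0.70), and the YAP target Ankrd1 at 29.2 and 31.2 TPM (0.26). The list does not hold Nppb, which the study counts among the targets of YAP and TAZ. Nppb, the natriuretic peptide precursor, went the other way, from 6.68 to 37.3 TPM (2.49), and was more than 2-fold above each of the other 6 libraries.

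Of 43 mesenchymal patterning factors, 1 was past 2-fold lower, where 1.83% of all genes were, and 0 higher. Osr1, an odd-skipped factor of connective tissue and kidney precursors, stood at 40.2 TPM in the control, 7.16 TPM in arsenite, 13.3 TPM in NaCl, 22.5 TPM in thapsigargin, 32.5 TPM without glucose, 18.3 TPM without glutamine and 37.8 TPM in hypoxia (-2.17). Its level was thus below the control in every stress library and lowest in arsenite. The change was -1.40 in NaCl, -0.996 without glutamine and -0.82 in thapsigargin.

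Mitotic genes were lower as a list. Of 30, 5 were past 2-fold lower, 29 had a change below 0, and the median was -0.61, against -0.58 in NaCl and -1.13 in thapsigargin. Kif2c, a microtubule-depolymerising kinesin, went from 26.6 to 7.23 TPM (-1.58), Nusap1, a spindle protein, from 31.4 to 9.41 TPM (-1.47), and Plk1, the mitotic polo-like kinase, from 48.7 to 15.7 TPM (-1.40). Bub1b, of the spindle checkpoint, was the remaining named member (25.3 and 9.78 TPM, -1.12). Top2a (-0.24) and Mki67 (-0.24) were close to their control levels. Genes of DNA replication had 0 of 26 members past 2-fold and a median of -0.16.

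Secreted inflammatory and matrix genes were mixed. Of 11 chemokines, Cxcl5 (54.6 and 16.8 TPM, -1.47) and Cxcl1 (7.39 and 2.26 TPM, -1.20), neutrophil attractants, were past 2-fold lower, and Ccl8 was higher at 1.54 and 3.84 TPM (1.10). In NaCl Cxcl5 was at 55.9 TPM and Cxcl1 at 10.3 TPM. Of 19 matrix proteases and inhibitors, Adamts1 (81.3 and 25.2 TPM, -1.48) and Adamts5 (41.0 and 14.7 TPM, -1.26), which cleave proteoglycans, were lower, and Plaur, the urokinase receptor (106 and 233 TPM, 1.30), and Mmp13, a collagenase (2.31 and 5.21 TPM, 1.07), were higher. Of 16 interferon response genes, 1 was lower, Ifit3 (8.83 and 3.31 TPM, -1.02), and the median was -0.34. The 20 collagens (median 0.20), 28 matrix glycoproteins and proteoglycans (0.23), 23 contractile actin genes (0.12) and 11 tubulins (0.30) had 0 members past 2-fold.

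**Figure D4:**
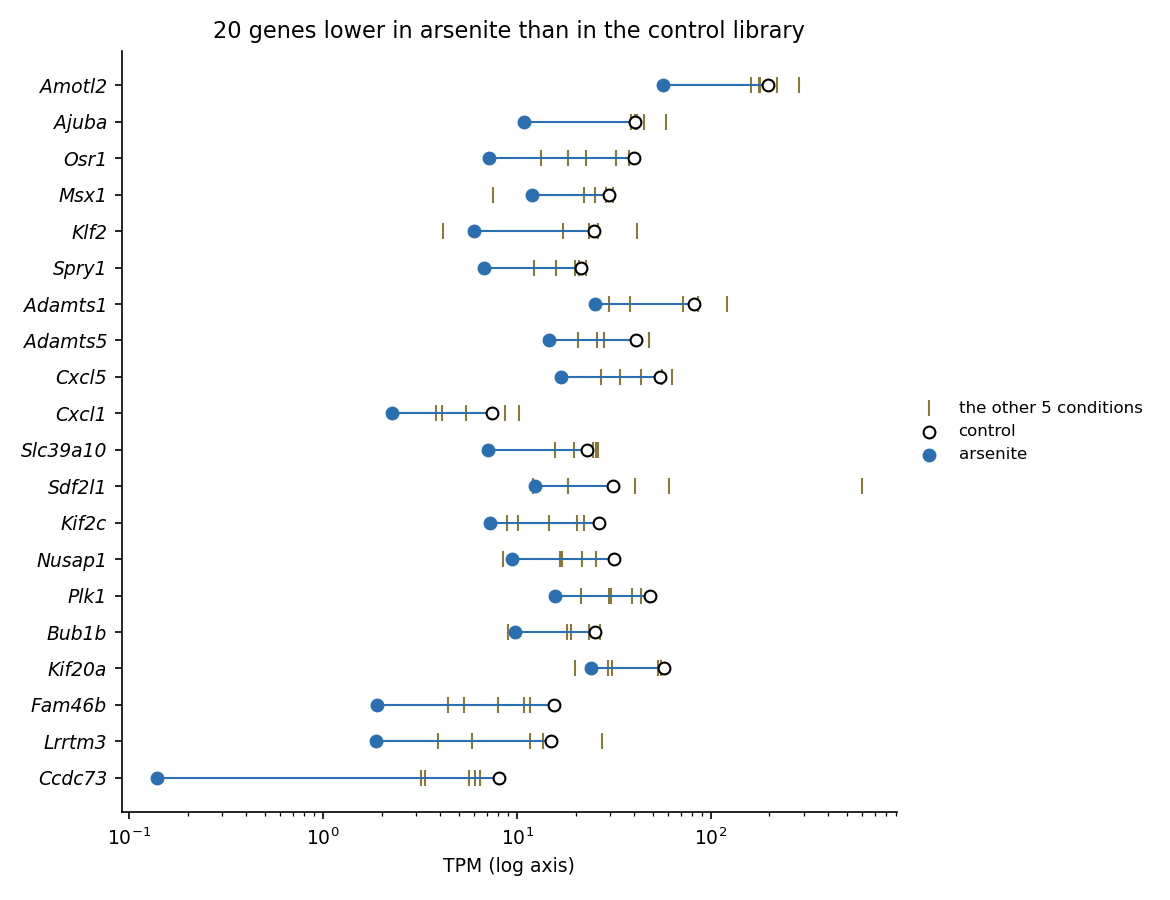
TPM on a log axis of 20 genes lower in arsenite (filled circle) than in the control (open circle), with ticks for the other 5 conditions, 1 library each. For Amotl2, Ajuba and Ccdc73 the arsenite level lies more than 2-fold below each of the other 6 libraries, while for Klf2, Msx1, Sdf2l1, Nusap1, Bub1b and Kif20a another condition is lower still.

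The most extreme values were mostly those of unnamed or short transcripts. Of the 15 highest changes, 5 belonged to protein-coding genes, namely Hspa1a, Hmox1, Atf3, Hspa1b and Mt2, and 8 of the 15 were listed at 0 in the control. The top value was that of AC245272.5, listed at 0 in the control and at 61.9 TPM in arsenite. The long noncoding Snhg14, a host of small nucleolar RNAs, went from 3.35 to 37.5 TPM (3.31). Of the 15 lowest, 3 were protein-coding (Ccdc73, Hist2h2aa1 and Fam46b) and 9 were listed at 0 in arsenite, which in transcripts this short or this low does not show that they were lost.

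Among protein-coding genes alone, a list added after the values were seen, Phlda1, a growth-factor-induced regulator of survival, went from 17.6 to 114 TPM (2.80) and Rcan1, a calcineurin inhibitor, from 39.2 to 191 TPM (2.43, with 345 TPM in thapsigargin). At the other end, Ccdc73 stood at 8.10 TPM in the control, 0.139 TPM in arsenite and 3.17 to 6.44 TPM in the other 5 conditions (-2.83). Fam46b, a noncanonical poly(A) polymerase gene, went from 15.5 to 1.89 TPM (-2.34), and Lrrtm3, a synaptic adhesion gene, from 14.9 to 1.87 TPM (-2.30).

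Transcripts encoded by mitochondrial DNA were higher together by a small amount. All 15 compared had a change above 0 (median 0.67, -0.22 in NaCl), 1 was past 2-fold, mt-Co2 (4588 and 8662 TPM, 1.09), and their share of all TPM was 9.25% in arsenite and 6.37% in the control. The 77 nuclear genes of the respiratory chain had a median of 0.03. Malat1, an abundant nuclear noncoding RNA, went from 99.1 to 201 TPM (1.18). The part of RNA quality or library composition in these levels was not tested.

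The culture expressed fibroblast markers in both libraries, with all 12 above 1 TPM in the control and a summed level of 15248 TPM in the control and 13160 TPM in arsenite. Macrophage markers summed to 12.6 and 15.3 TPM over 11 genes, with C1qa at 0 in both, endothelial markers to 7.09 and 5.24 TPM, and erythroid markers to 0.371 and 1.13 TPM over 8 genes with Hbb-bs, Hbb-bt and Hbb-y at 0 in both. Since the study describes sorting its MEFs to remove macrophages, the low macrophage sum is no separate finding. Neural and glial markers summed to 49.4 and 71.1 TPM. Of these sums Nes, also found in many dividing mesenchymal cells, made up 20.7 and 45.4 TPM (1.27). Stmn2, of the same list, made up 26.7 and 23.0 TPM (-0.04). Epithelial and muscle markers summed to 48.0 and 46.0 TPM and to 36.1 and 36.7 TPM.

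**Figure D5:**
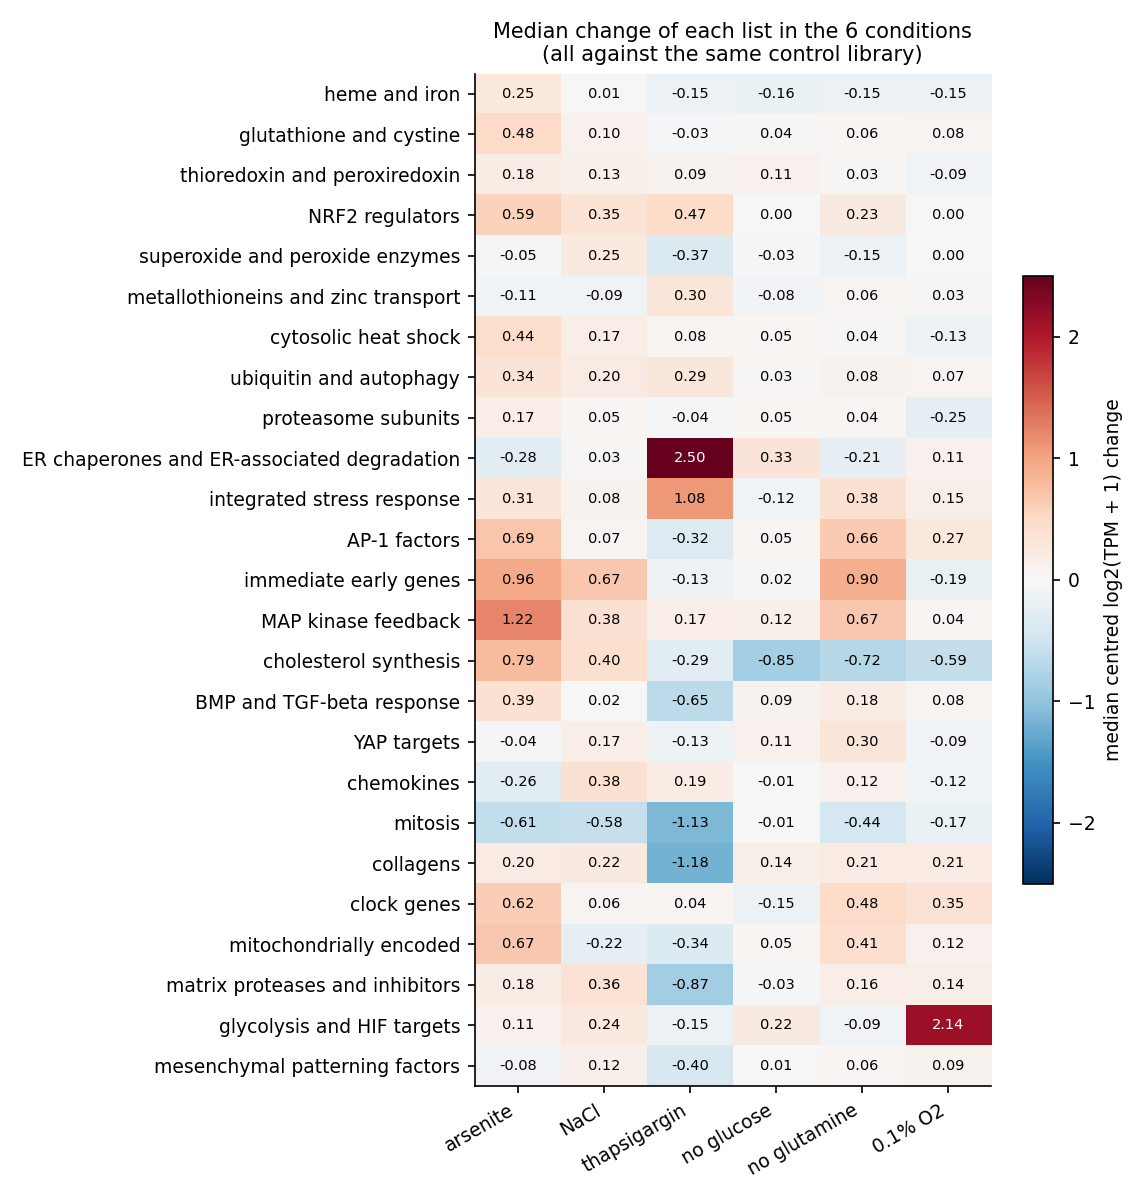
Median centred log2(TPM + 1) change of 25 gene lists (rows) in the 6 conditions (columns), each against the same control library, with the value in each cell. The arsenite column is highest for MAP kinase feedback (1.22) and lowest for mitosis (-0.61), the cholesterol list is above 0 in arsenite and NaCl and below 0 elsewhere, and the ER chaperone list is at -0.28 in arsenite and 2.5 in thapsigargin.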

How the data were processed

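Total mRNA of 7 MEF cultures was sequenced by the authors (stranded mRNA libraries, paired reads), and pseudoaligned by them with Kallisto 0.43.1 to Ensembl cDNA of GRCm38. The deposited TPM were summed by the authors over the transcripts of each gene and hold no counts, so depth, counting error and reads lost to short transcripts are unknown. Kallisto divides reads between similar transcripts, which makes copies such as Hspa1a and Hspa1b uncertain. Samples were grouped by their labels, 1 library per condition. From the deposited TPM, 102 rows identical to another row of the same symbol were dropped, 12840 genes averaging 2 TPM or more over the libraries were kept, 1282 of them were left out by symbol class, and log2(TPM + 1) changes were centred on their median. Symbols on 2 rows were represented in lists by the row with the higher mean. No test across genes was run. Results of a few genes are not reported here.

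Genes named are the 3 markers, the 15 highest and 15 lowest changes, up to 4 members past 2-fold of each list (or its highest and lowest member), and genes whose role a sentence explains. The genes described and the lists were chosen with earlier results of these data known, and the lists serve as description. Gene types and positions came from GENCODE M21, with 55 genes unmatched, and promoter windows from RefSeq, matched by symbol. Alternatives were pseudocounts of 0.1 and 5 TPM, no minimum or a mean of 10 TPM, no centring, 1.5-fold and 3-fold thresholds, removal of mitochondrially encoded genes, all symbol classes, and other reference libraries. A restriction to protein-coding genes was added after seeing the data. The steps were tested on simulated data. The work was done in Python 3.11.15 with pandas 2.3.3 and numpy 2.4.6, and plots were drawn with matplotlib 3.10.9.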

Additional observations from a re-analysis of the deposited data

Results flagged for a closer look

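Of the genes named by the rule and reported here, 5 were past 2-fold in opposite directions in the 2 conditions of 3 h. The difference was not tested, since each condition had 1 library. Arsenite was above NaCl by 3.78 (log2, centred) for Chac1, by 2.60 for Slc30a1 and by 2.14 for Bhlhe41. Arsenite was below NaCl for the pseudogene AC161829.1 (-4.25) and for BX890553.6 (-4.31), both listed at 0 in arsenite and at 18.7 and 19.4 TPM in NaCl. All 5 are differences between a single pair of libraries.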

How the results depend on the processing

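No paired analysis was possible because each condition had 1 library, and no library could be left out. Counts of genes past 2-fold depended on most choices. The 313 genes higher became 175 with a pseudocount of 5 TPM, 199 with a mean of at least 10 TPM, 953 at 1.5-fold, 99 at 3-fold, 609 with all symbol classes kept and 745 with the NaCl library as reference. The 212 genes lower became 385 and 48 with pseudocounts of 0.1 and 5 TPM, 543 without a minimum, 92 with a mean of at least 10 TPM, 419 without centring, 1009 at 1.5-fold, 42 at 3-fold, 413 with all symbol classes kept and 109 against the median of the other stress libraries. Among protein-coding genes alone the counts were 276 and 173.

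Of the 152 genes named by the rule and reported here, 104 were past 2-fold. Of these, 104 remained so with a pseudocount of 0.1 TPM, 79 with 5 TPM, 93 without centring, 62 against NaCl and 72 against the median of the 5 other stress libraries. Direction turned only with another reference library. Against NaCl it turned for Dusp1 (-0.073), Junb (-0.49), Csrnp1 (-0.53), Ier3 (-0.68), Mmp13 (-0.72), AC124457.1 (-0.84), and for AC122428.2, AC152063.2, AC166358.4, CAAA01205117.1 and Hist2h2aa1 (0.042 each), the last 5 being near 0 TPM in both libraries. Against the median it turned for AC152063.2, AC161829.1, Hist2h2aa1 and Rny1 (0.11 each). The median of the MAP kinase feedback list ranged from 0.34 to 1.27 over the alternatives, that of the heat shock list from 0.27 to 0.45, that of the cholesterol list from 0.35 to 1.30 and that of the mitosis list from -0.78 to -0.01, so the lower level of mitotic genes was not seen against every reference.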
